A study of Mus musculus with 4 samples.

Results

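Proliferating peritoneal macrophages were taken as the sorted cells that carried at least 5 unique molecular identifiers (UMIs, each standing for 1 captured transcript) in the sum of Mki67, Top2a, Birc5 and Ube2c. A member also needed at least 1 UMI of Adgre1, the gene of the macrophage surface protein F4/80, at least 500 detected genes, at most 10% mitochondrial UMIs, no UMI of the B cell gene Cd79a and none of the T cell genes Cd3d, Cd3e and Cd3g. The rule found 506 cells among 26811 barcodes. These dividing cells were set against 12782 comparison cells of the same filters, which held at least 2 UMIs of Adgre1 and none of the 4 proliferation genes. The 4 proliferation genes and Adgre1 chose the cells, so the members were chosen by measured values, their levels are a description, and every difference between dividing and comparison cells follows from that choice and carries no test.

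The matrix came from viable F4/80+ cells washed from the peritoneal cavity of mice 24 weeks old and prepared with the 10x Genomics 3' V3 kit. There were 4 groups with 1 sample each. In the Apoe-/- HFD anti-CVI-mAb group, male Apoe-/- mice were given a diet with 21% fat and 0.15% cholesterol (HFD) for 20 weeks from an age of 4 weeks. They returned to normal food 1 week ahead of immunization and in week 21 received 3 mg of a collagen VI monoclonal antibody in 200 µL into the peritoneum. The Apoe-/- HFD group had the same diet and 200 µL of PBS. Apoe-/- mice and C57BL/6 mice of genotype WT on a normal diet received the same volume of PBS. Apoe-/- mice lack apolipoprotein E in every cell, and their background is C57BL/6. The sources used here do not say how many animals gave each sample.

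The 4 barcode suffixes are treated as libraries 1 to 4. Which sample a suffix stands for could not be read from the labels or headers, so no library is given a group and groups are not compared. The libraries held 6254, 6765, 6454 and 7338 barcodes with 40321459, 74067998, 73429015 and 78083803 UMIs. Library 1 was the shallowest and held few dividing cells. Of the barcode sequences, 52 occurred under 2 suffixes, 1 of them among the dividing cells.

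Macrophages of the serous cavities renew themselves largely by local division, under signals such as colony-stimulating factor 1 and, in some settings, interleukin 4. In the mouse peritoneum, large resident macrophages express Gata6, their lineage-defining transcription factor, and many express Timd4, a receptor for phosphatidylserine on dying cells, while small macrophages of more recent monocyte origin express the chemokine receptor gene Ccr2 and genes of MHC class II. A dividing cell first licenses its DNA, copies it in S phase and then builds the spindle, condenses its chromosomes and separates them in mitosis. The genes for copying and for mitosis are transcribed in that order.

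Dividing cells numbered 5, 190, 175 and 136 in libraries 1 to 4. As a share of the Adgre1-positive cells without a lymphocyte gene they made up 0.282% in library 1 (exact binomial 95% interval 0.0916 to 0.657%, 1774 cells), 4.11% in library 2 (3.56 to 4.72%, 4623 cells), 3.97% in library 3 (3.41 to 4.59%, 4408 cells) and 2.66% in library 4 (2.24 to 3.14%, 5106 cells). All intervals here and below cover counting error only. With every cell thinned at random to 5000 UMIs and the sum set at 3 or more, the shares were 0.313, 3.47, 3.34 and 1.85%. Libraries 2 and 3 had overlapping intervals, library 4 lay below both, and library 1 lay below all of them at either depth. The F4/80 sort set which cells entered, and its part in these shares was not tested.

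**Figure D1:**
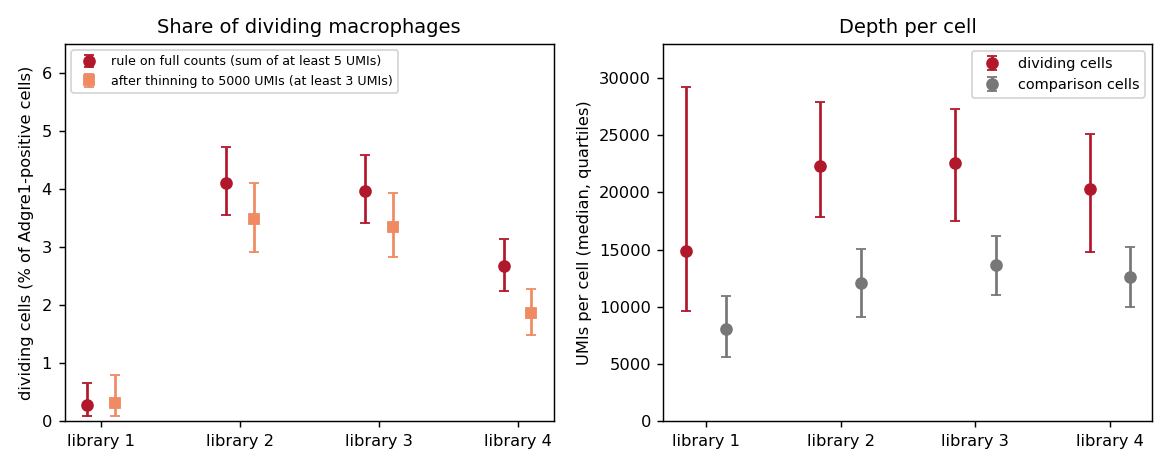
Left, dividing cells as a percentage of Adgre1-positive cells in libraries 1 to 4, by the rule on full counts (circles) and after thinning to 5000 UMIs (squares), with exact binomial 95% intervals. Right, UMIs per cell as median (point) and quartiles (bars) in dividing cells (red) and comparison cells (grey). The share is 0.282% in library 1 and 2.66 to 4.11% in libraries 2 to 4, and the dividing cells are deeper in every library.

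Dividing cells held more RNA molecules per barcode than comparison cells. Their median depths were 14844, 22318, 22548 and 20293.5 UMIs in libraries 1 to 4, against 8003.5, 12034.5, 13656 and 12564.5 UMIs in comparison cells. Barcodes of over 30000 UMIs made up 16.8, 12.6 and 10.3% of dividing cells in libraries 2 to 4, against 0.396, 0.664 and 0.712% of comparison cells. No doublet caller was run, and the part of depth in the results was not tested beyond the following. Each cell was thinned to 5000 UMIs before the comparisons, which left out 1 and 2 dividing cells of libraries 1 and 2, and values in cells of 5000 to 20000 UMIs are given beside the markers.

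The label was checked against fixed markers. With each gene's UMIs scaled to the total of its set and library (CPM), the 10 macrophage markers summed to 38537, 43549 and 44035 CPM in dividing cells of libraries 2 to 4, against 50629, 60470 and 68982 CPM in comparison cells. None of these 10 was at 0 in dividing cells. Lyz2, the gene of lysozyme, gave most of the sum, with 32272, 36951 and 37879 CPM in dividing cells and 42035, 50986 and 60428 CPM in comparison cells. Csf1r, the receptor for colony-stimulating factor 1, had 413, 363 and 396 CPM in dividing cells, against 619, 430 and 466 CPM in comparison cells. Cd68, a lysosomal membrane protein gene, had 285, 358 and 288 CPM in dividing cells, against 277, 317 and 248 CPM in comparison cells. The dividing cells thus carried the macrophage genes of the label, at summed levels below those of the comparison cells in each library.

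Markers of other cells were low in dividing cells. The 7 B cell markers summed to 21.3, 9.14 and 7.35 CPM in dividing cells, against 20.8, 9.49 and 7.64 CPM in comparison cells, with Pax5 and Ebf1 at 0 UMIs in dividing cells. The 7 T cell markers summed to 1.06, 4.57 and 1.47 CPM, against 1.37, 1.36 and 1.08 CPM, with Lck, Thy1 and Lat at 0. The 6 NK cell markers were all at 0 UMIs in dividing cells. The 7 dendritic cell markers summed to 3.19, 17.1 and 17.6 CPM in dividing cells, against 2.21, 7.97 and 10.4 CPM in comparison cells, with 7 of 15 UMIs in library 3 and 6 of 12 in library 4 from Cd209a and with Xcr1 at 0. Neutrophil, mast cell, eosinophil, stromal and red blood cell lists reached at most 21.3 CPM in dividing cells of any library. Of the plasma cell list only Xbp1, which macrophages also express, was above 20 CPM. The T cell list in library 3 and the dendritic list in libraries 3 and 4 were above their level in comparison cells, at 4.57 to 17.6 CPM, and their part in the other results was not tested.

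The sum of the 4 proliferation genes had medians of 38, 42 and 34 UMIs in dividing cells of libraries 2 to 4, with highest values of 142, 184 and 162 UMIs. It was 20 UMIs or more in 119 of 190, 126 of 175 and 90 of 136 cells. Top2a, the topoisomerase that untangles copied DNA, was found in 97.9, 93.1 and 91.2% of dividing cells. Mki67, which coats the mitotic chromosome surface, was found in 97.4, 93.1 and 97.8%. Birc5, a subunit of the chromosomal passenger complex, was found in 88.4, 89.7 and 88.2%, and Ube2c, which passes ubiquitin to mitotic targets, in 82.6, 93.1 and 80.9%. Most members were thus far inside the threshold, with several of the 4 genes detected.

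Few cells lay at the threshold. Just inside it, with a sum of 5, were 4, 12 and 7 cells of libraries 2 to 4, and just outside, with a sum of 4, were 9, 8 and 6 cells. The median summed UMIs of 46 S-phase genes (licensing, replication fork and nucleotide synthesis) at 5000 UMIs per cell were 12.5, 8 and 2 in the cells just inside and 16, 3 and 2 in those just outside, and the medians of 48 mitosis genes were 8, 3.5 and 3 just inside and 5, 2.5 and 2 just outside. In library 4 the cells at a sum of 5 thus had S-phase and mitosis counts close to those of comparison cells, which had medians of 1 and 2. Across Adgre1-positive cells, 513, 538 and 661 had sums of 1 to 4 and belong to neither set.

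Both S-phase and mitosis genes were high in the dividing cells. The S-phase genes had a median of 23 UMIs per cell in dividing cells of library 2, 16 in library 3 and 14 in library 4, against 2, 1 and 1 in comparison cells. The mitosis genes, none of them among the 4 that chose the cells, had medians of 22, 25 and 25 UMIs in dividing cells, against 2, 2 and 2 in comparison cells. The S-phase count passed the 99th percentile of comparison cells in 148 of 188, 141 of 175 and 106 of 136 dividing cells, and the mitosis count in 172, 156 and 112. Within the dividing cells, S-phase UMIs outnumbered mitosis UMIs in 90 cells of library 2, 54 of library 3 and 46 of library 4, and mitosis UMIs were more numerous in 93, 116 and 90. Library 2 was thus the most evenly spread over S-phase and mitosis genes, while in libraries 3 and 4 more dividing cells were on the mitosis side. Of the comparison cells, 4 of 3354, 3 of 3539 and 1 of 4086 reached the S-phase median of the dividing cells, so few of them held a full S-phase count without the 4 genes.

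**Figure D2:**
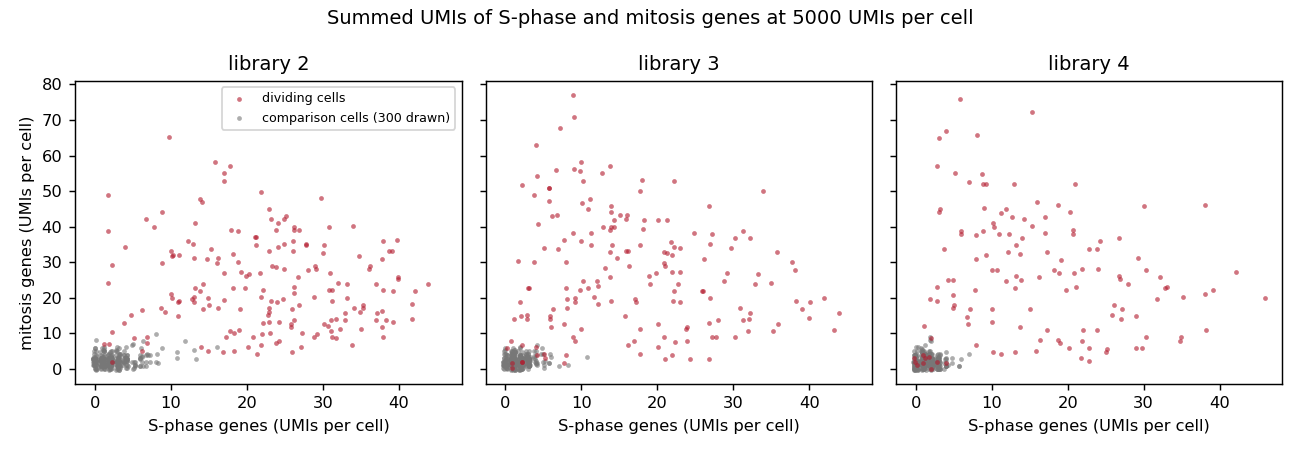
Summed UMIs of 46 S-phase genes (horizontal axis) and 48 mitosis genes (vertical axis) per cell after thinning to 5000 UMIs, with dividing cells in red and 300 randomly drawn comparison cells in grey for libraries 2 to 4. Points are shifted slightly at random so that they do not hide each other. Dividing cells reach 44 to 46 S-phase UMIs and 65 to 77 mitosis UMIs, and comparison cells stay in the lower left corner.

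For all other genes, UMIs were summed over the thinned cells of each set and library and expressed as CPM. A gene was tested for size where the higher set had at least 20 CPM in each of libraries 2 to 4, and was called where the log2 ratio of dividing to comparison cells (with 0.5 UMIs added) was at least 1 in size, with 1 sign, in all 3 libraries. Library 1 had too few dividing cells for this. Of 5315 genes, 381 were higher in dividing cells, which is 7.17% of the genes, and 9 were lower, which is 0.169%. In library 2, 3 or 4 alone the same size was reached upward by 10.2, 10.9 and 11.4% of genes and downward by 1.22, 1.29 and 1.79%. The median log2 ratio of all genes was 0.07, 0.12 and 0.16. Of the 381 higher genes, 4 had chosen the cells, 126 were on the 11 cell cycle lists and 251 were on none of these lists. The lists do not hold every cell cycle gene: Pclaf, Esco2, Nek2 and Kif4, described below, are among the 251. Here and below, a gene counts as reaching 20 CPM in comparison cells where it did so in each of libraries 2 to 4. Many cell cycle genes did not, so they entered through the dividing cells in some library and had to be higher there. Of the 4596 genes that reached it in comparison cells, 73 were higher and 9 lower. Of 25 such cell cycle genes 17 were higher.

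**Figure D3:**
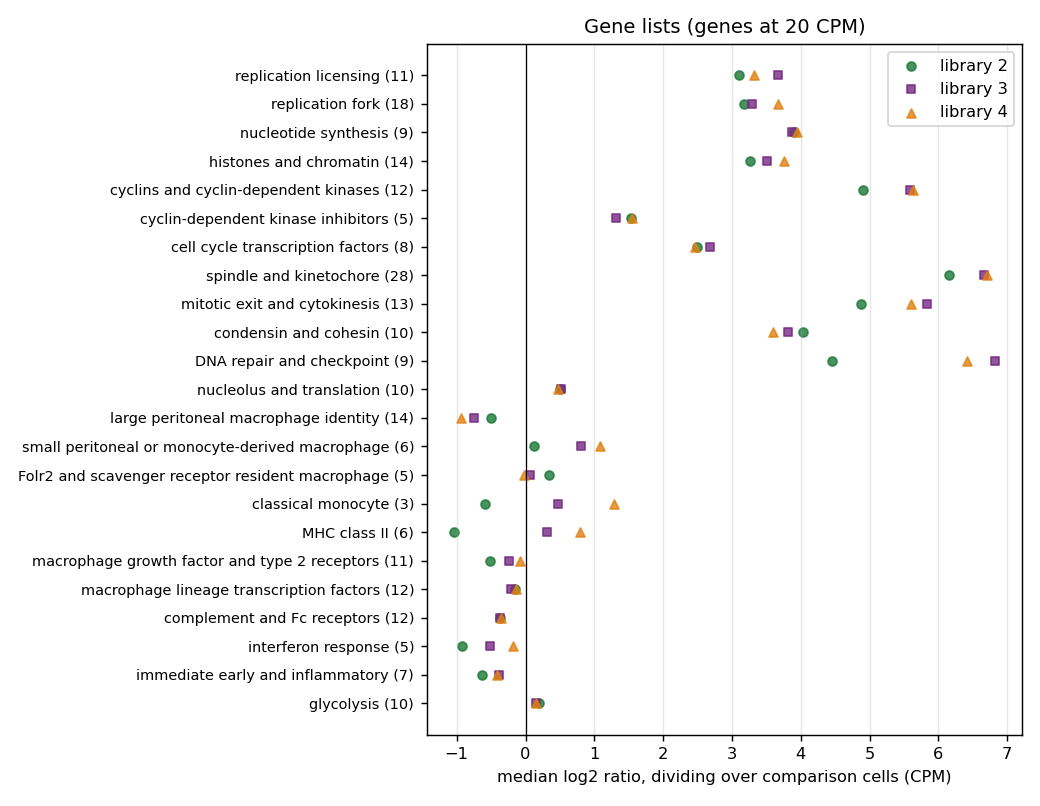
Median log2 ratio of CPM in dividing over comparison cells for 23 gene lists, with the number of genes at 20 CPM in brackets and a symbol for each of libraries 2 to 4. The 11 cell cycle lists lie to the right, the nucleolar list at 0.47 to 0.51, and the large peritoneal macrophage list to the left at -0.51 to -0.94.

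The 12 genes with the largest median ratios were Kif4, Pbk, Hmmr, Pclaf, Nek2, Cenpf, Ccnb2, Esco2, Neil3, Rad51ap1, Ccna2 and Aspm, which were taken by their median log2 ratio over libraries 2 to 4. Pclaf, a factor that binds the replication clamp PCNA, had the highest level of these, with 538, 369 and 413 CPM in dividing cells of libraries 2 to 4, against 0.954, 0.396 and 0.392 CPM in comparison cells. It was found in 77.7, 66.9 and 63.2% of thinned dividing cells and in 0.447, 0.198 and 0.196% of comparison cells. Ccnb2, a B-type cyclin of mitosis, had 134, 213 and 207 CPM in dividing cells, against 0.417, 0.283 and 0.245 CPM in comparison cells. Both genes were thus nearly absent from cells without the 4 proliferation genes.

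Esco2, an acetyltransferase that locks cohesin during replication, had 121, 91 and 54 UMIs in dividing cells, against 2, 3 and 2 UMIs in comparison cells. Its log2 ratios were 9.76 (95% interval 8.19 to 13.14), 9.05 (7.67 to 11.56) and 9.36 (7.74 to 12.75). Nek2, a centrosome kinase, had 19, 20 and 14 UMIs in dividing cells and 0 in comparison cells of each library. Counting 3 UMIs per library as the floor in comparison cells gives log2 ratios of 6.82, 7.07 and 7.13. The exact 95% lower limits, which also cover counting error in dividing cells, were 6.38, 6.64 and 6.64. Kif4, a chromosome-bound motor, had 21, 46 and 37 UMIs in dividing cells, against 1, 0 and 0 UMIs in comparison cells. Such counts fix the direction but leave the size of the ratio wide.

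Genes that license DNA for copying had low levels in comparison cells. Of the 11 licensing genes tested, 0 reached 20 CPM in comparison cells of each library, though Mcm3 had 22.1 CPM there in library 2. Each thus entered through the dividing cells in some library and had to be higher there. All 11 passed the rule of size, with median log2 ratios of 3.09, 3.66 and 3.32. Mcm5, a subunit of the replicative helicase, had 183, 125 and 109 CPM in dividing cells, against 12.3, 3.67 and 2.10 CPM in comparison cells. Mcm10, which starts unwinding, had 68.1, 32.0 and 36.8 CPM, against 0.656, 0.170 and 0.147 CPM. Of the licensing genes under 20 CPM in some library, Cdc6 had log2 ratios of 3.83, 4.05 and 2.61. At the replication fork, 17 of 18 genes passed. Only 1 of the 18 reached 20 CPM in comparison cells, and it was higher in dividing cells. The exception was Pola2, a subunit of the primase complex, with log2 ratios of 1.03, 1.15 and 0.92. Pcna, the sliding clamp, had 479, 360 and 269 CPM in dividing cells and was also well expressed in comparison cells, at 74.5, 50.1 and 45.6 CPM. Uhrf1, which copies DNA methylation together with Dnmt1, differed more, with 131, 51.4 and 58.8 CPM in dividing cells and 1.85, 0.452 and 0.294 CPM in comparison cells.

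All 9 nucleotide synthesis genes at 20 CPM passed, 1 of them at 20 CPM in comparison cells. Rrm2, the ribonucleotide reductase subunit made in S phase, had 176, 145 and 140 CPM in dividing cells, against 0.656, 1.19 and 0.343 CPM in comparison cells. Its partner Rrm1 had 215, 112 and 143 CPM, against 13.4, 7.63 and 9.25 CPM. Impdh2, of guanine nucleotide synthesis, was present in both sets, with 170, 193 and 162 CPM in dividing cells and 75.9, 58.1 and 47.7 CPM in comparison cells. The 14 histone and chromatin genes passed too, 5 of them at 20 CPM in comparison cells. H2az1, a histone variant gene with a polyadenylated transcript, had 2237, 2179 and 2474 CPM, against 564, 561 and 678 CPM. Hmgb2, a chromatin protein of cycling cells, had 1300.0, 1477 and 1503 CPM, against 178, 136 and 118 CPM. H1f5, a linker histone gene, had 501, 505 and 487 CPM, against 2.86, 5.88 and 2.50 CPM. The 3' kit primes on poly(A) tails, which most replication histone transcripts lack, so levels of the histone genes are those of their tailed or internally primed transcripts, and near-identical copies among the histone, high mobility group and tubulin genes make the assignment of reads to a single gene uncertain.

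Cyclins differed by type. Of 12 cyclin and kinase genes at 20 CPM, 10 were higher in dividing cells. Only 3 of the 12 reached 20 CPM in comparison cells, and 1 of these 3 was higher. The other higher genes entered through the dividing cells and had to be higher there. The 2 that did not pass were D-type cyclins, which act before S phase. Ccnd1 had 197, 112 and 156 CPM in dividing cells, against 158, 237 and 181 CPM in comparison cells, and Ccnd3 had 111, 110 and 101 CPM, against 80.5, 104 and 70.1 CPM. Their levels in the sets overlapped. In contrast, Ccna2, the cyclin of S phase and G2, had 121, 126 and 118 CPM, against 0.179, 0.113 and 0.196 CPM. Cdk1, the mitotic kinase, had 164, 226 and 221 CPM, against 1.43, 1.36 and 1.71 CPM, and Cdk4, the partner of the D cyclins, had 150, 110 and 150 CPM, against 58.3, 49.9 and 49.3 CPM.

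Inhibitors of these kinases were split. Cdkn3, Cdkn2c and Cdkn2d passed the rule upward, Cdkn2c with 83, 97.1 and 112 CPM in dividing cells and 8.83, 22.0 and 38.5 CPM in comparison cells. Of the 5 inhibitors tested, 3 reached 20 CPM in comparison cells, and 1 of these 3 was higher in dividing cells. Cdkn1a, which halts the cycle after DNA damage, had 157, 165 and 112 CPM in dividing cells and 106, 122 and 75.5 CPM in comparison cells. Cdkn2a, which holds cells out of the cycle and was under 20 CPM in library 2, had 2.13, 20.6 and 23.5 CPM in dividing cells, against 9.72, 60.4 and 96.2 CPM in comparison cells. Its log2 ratios were -1.87 (-5.25 to -0.32), -1.51 (-2.31 to -0.89) and -1.99 (-2.84 to -1.33), and it had the lowest of the 8 inhibitors in libraries 2 and 4. Among 8 transcription factors of the cycle, 6 passed. Only 1 of the 8 reached 20 CPM in comparison cells and it was not called, so the 6 entered through the dividing cells. Foxm1, of these 6, had 39.4, 51.4 and 45.6 CPM in dividing cells and 0.239, 0.0565 and 0.196 CPM in comparison cells. Rb1 and Rbl2, which hold E2F targets down, did not pass. Myc was at 16.0, 14.9 and 11.8 CPM in dividing cells and 25.1, 17.4 and 16.0 CPM in comparison cells.

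Spindle genes had large ratios. All 28 spindle and kinetochore genes passed, of which 4 reached 20 CPM in comparison cells, with median log2 ratios of 6.15, 6.66 and 6.71. Cenpf, a kinetochore protein, had 148, 298 and 297 CPM in dividing cells, against 0.239, 0.396 and 0.343 CPM in comparison cells. Plk1, a master kinase of mitosis, had 51.1, 61.7 and 64.7 CPM, against 0.0596, 0.452 and 0.294 CPM. Stmn1, which takes microtubules apart, had 1161, 1029.7 and 1025 CPM, against 7.63, 4.07 and 2.74 CPM. The tubulin genes Tubb5 and Tuba1b were also plentiful in comparison cells, with ratios of 2.54 to 3.13. Cenpf and Plk1 were lower in dividing cells of library 2 than of libraries 3 and 4, and Mcm5 and Uhrf1 were higher there.

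Of 13 mitotic exit and cytokinesis genes, 12 passed. Only 1 of the 13 reached 20 CPM in comparison cells and it was not called, so the 12 entered through the dividing cells. Cdc20, the activator of the anaphase-promoting complex, had 61.7, 83.4 and 103 CPM in dividing cells, against 0.477, 1.30 and 0.538 CPM in comparison cells. Prc1, which bundles the central spindle, had 140, 191 and 156 CPM, against 0.119, 0.396 and 0.685 CPM. The exception was Pttg1, securin, the inhibitor of the protease that splits the sister chromatids. It had 37.2, 25.1 and 29.4 CPM in dividing cells, against 45.6, 41.2 and 43.9 CPM in comparison cells, with log2 ratios of -0.27 (-0.82 to 0.20), -0.68 (-1.40 to -0.10) and -0.54 (-1.30 to 0.06). Espl1, the protease separase itself, was likewise the exception among 10 condensin and cohesin genes. It had 54.3, 52.6 and 27.9 CPM in dividing cells and 41.4, 34.1 and 30.7 CPM in comparison cells. Of these 10 genes, 5 reached 20 CPM in comparison cells, and 4 of these 5 were higher in dividing cells. Smc2, a condensin subunit, had 285, 259 and 243 CPM, against 10.1, 10.6 and 9.69 CPM, and the cohesin gene Rad21 had 188, 187 and 172 CPM, against 60.9, 50.6 and 50.7 CPM. Of 9 DNA repair genes, 7 passed. Only 1 of the 9 reached 20 CPM in comparison cells and it was not called, so the 7 entered through the dividing cells. Brca1, of these 7, had 44.7, 52.6 and 36.8 CPM, against 0.239, 0 and 0.245 CPM. Trp53 had 102, 59.4 and 64.7 CPM, against 57.8, 40.3 and 41.1 CPM.

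Promoters of genes of both phases are known to carry cell cycle elements, and these were looked up in 300 bases of each RefSeq promoter (GRCm38.p6, 250 bases before to 50 bases after the start). The motifs searched on both strands were the CCAAT box (CCAAT), the cell cycle homology region (CHR, TTTGAA or TTCGAA) and E2F elements (TTTCCCGC, TTTGGCGC, TTTCGCGC or TTTGCCGC), which may overlap one another. The promoters of 4 mitosis genes with a CCAAT box and a CHR, and of 2 licensing genes with E2F elements, show how the elements lie. Capitals mark every match of the 3 motifs. Top2a is at chr11:99024140-99024439 (minus strand), Ube2c at chr2:164769679-164769978 (plus), Ccnb2 at chr9:70421505-70421804 (minus), Cdc20 at chr4:118437294-118437593 (minus), Mcm5 at chr8:75109259-75109558 (plus) and Mcm7 at chr5:138171834-138172133 (minus).
Top2a: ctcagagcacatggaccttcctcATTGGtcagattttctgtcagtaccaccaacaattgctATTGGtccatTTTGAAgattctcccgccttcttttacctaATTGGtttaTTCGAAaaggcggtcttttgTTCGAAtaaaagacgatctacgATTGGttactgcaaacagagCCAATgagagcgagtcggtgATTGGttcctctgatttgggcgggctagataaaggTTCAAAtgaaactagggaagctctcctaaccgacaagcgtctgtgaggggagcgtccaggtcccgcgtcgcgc
Ube2c: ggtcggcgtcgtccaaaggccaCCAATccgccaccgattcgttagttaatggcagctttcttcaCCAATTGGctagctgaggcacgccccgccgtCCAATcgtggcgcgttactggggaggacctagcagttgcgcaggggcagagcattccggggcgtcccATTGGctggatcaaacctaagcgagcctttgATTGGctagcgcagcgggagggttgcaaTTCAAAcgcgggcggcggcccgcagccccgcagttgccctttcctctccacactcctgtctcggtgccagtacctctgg
Ccnb2: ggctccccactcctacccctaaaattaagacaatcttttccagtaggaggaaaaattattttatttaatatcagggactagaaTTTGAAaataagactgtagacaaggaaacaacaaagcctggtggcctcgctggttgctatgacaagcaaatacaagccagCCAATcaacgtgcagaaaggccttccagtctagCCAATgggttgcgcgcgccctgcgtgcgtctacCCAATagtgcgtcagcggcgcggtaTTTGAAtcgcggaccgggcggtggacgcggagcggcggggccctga
Cdc20: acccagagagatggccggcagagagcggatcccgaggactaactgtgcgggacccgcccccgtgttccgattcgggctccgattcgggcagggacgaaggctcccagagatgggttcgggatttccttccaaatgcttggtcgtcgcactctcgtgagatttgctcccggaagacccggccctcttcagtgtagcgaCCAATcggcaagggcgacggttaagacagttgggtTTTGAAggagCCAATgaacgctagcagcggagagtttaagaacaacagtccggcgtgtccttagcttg
Mcm5: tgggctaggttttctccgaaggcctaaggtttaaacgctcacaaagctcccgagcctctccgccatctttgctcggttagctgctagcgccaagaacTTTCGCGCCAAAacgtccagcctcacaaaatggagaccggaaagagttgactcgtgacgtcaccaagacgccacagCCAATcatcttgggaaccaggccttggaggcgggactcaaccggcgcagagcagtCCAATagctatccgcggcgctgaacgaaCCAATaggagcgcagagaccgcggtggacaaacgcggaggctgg
Mcm7: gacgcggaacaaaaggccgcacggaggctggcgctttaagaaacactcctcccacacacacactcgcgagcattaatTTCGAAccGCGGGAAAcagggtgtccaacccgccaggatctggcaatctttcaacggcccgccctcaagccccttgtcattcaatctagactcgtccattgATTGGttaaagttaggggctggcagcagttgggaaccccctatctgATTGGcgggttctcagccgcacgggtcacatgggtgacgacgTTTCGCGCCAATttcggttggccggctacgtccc

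Top2a held 6 CCAAT and 4 CHR matches, Ube2c 6 and 1, Ccnb2 3 and 2, and Cdc20 2 and 1, with no E2F match in any of these 4. Mcm5 held 2 E2F and 3 CCAAT matches, and Mcm7 held 2 E2F, 3 CCAAT and 1 CHR. These 6 promoters are shown because they hold the elements, and others did not. Of the 4 genes that chose the cells, 3 held a CCAAT box and a CHR, and Birc5 held no match of any motif. Ccnb1 held 2 CCAAT matches and no CHR, and Pcna and Rrm2 held no E2F match. Mki67, Plk1, Cdk1 and Kif11 held both a CCAAT box and a CHR. Of 53 mitosis list genes 44 had a promoter in the table, and 33 of these (75%) held a CHR, against 19.4% of all 27025 promoters. A CCAAT box together with a CHR was found in 25 of the 44 (56.8%), against 7.70% of all promoters. Of 46 S-phase genes 40 had a promoter, and 11 of these (27.5%) held an E2F element, against 2.32% of all promoters. Of 10 promoters of the large peritoneal macrophage list, 3 held a CHR, 0 an E2F element and 6 a CCAAT box. The CCAAT box alone was found in 65.9% of the mitosis promoters, 57.5% of the S-phase promoters and 60% of those 10, against 37.9% of all promoters, so it did not separate these lists. A match describes these letters only and is not a binding site, and a promoter without a match in this window says nothing about the factor.

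Genes of the nucleolus and translation stayed below the rule of size. None of the 10 passed, and 9 had positive ratios in all 3 libraries, with medians of 0.49, 0.51 and 0.47. A positive ratio of this kind was found in 40.5% of all genes. Nhp2, a small nucleolar RNA partner, had 115, 113 and 79.4 CPM in dividing cells, against 59.9, 56.3 and 45.9 CPM in comparison cells. Ncl, nucleolin, had 374, 342 and 329 CPM, against 251, 237 and 223 CPM. Of 10 glycolysis genes none passed. Pgk1, phosphoglycerate kinase, came closest with 231, 157 and 137 CPM in dividing cells and 113, 79.3 and 69.9 CPM in comparison cells, while Gapdh had 1853, 1785 and 1496 CPM, against 1738, 1546 and 1204 CPM. The glycolysis medians were 0.19, 0.16 and 0.15. The medians of both lists were thus below those of each cell cycle list, the lowest being the kinase inhibitors at 1.53, 1.32 and 1.55. Single genes such as Pgk1 were close to the rule of size. The lists are not alike in entry. In comparison cells, 9 of the 10 nucleolar and all 10 glycolysis genes reached 20 CPM, against 25 of 137 cell cycle genes.

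The 5 named macrophage markers did not act as 1 group. Values are the percentage of cells with at least 1 UMI after thinning, then the level in CPM. Barcodes of B cells (at least 2 UMIs of Cd79a, none of Adgre1, median depths of 8039, 7509 and 7870.5 UMIs before thinning in libraries 2 to 4) show what free RNA alone can give in each library.

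Timd4 (chr11:46810800-46844332, plus strand, GRCm38) was found in 26.1% of dividing cells of library 2 (19.9 to 33.0%), 34.9% in library 3 (27.8 to 42.4%) and 36.0% in library 4 (28.0 to 44.7%). It was found in 13.6, 52.0 and 57.4% of comparison cells and in 1.56, 3.92 and 1.53% of B cell barcodes. Its level was 119, 149 and 171 CPM in dividing cells, against 75, 263 and 327 CPM in comparison cells. The log2 ratio was 0.67 (0.38 to 0.95) in library 2, -0.82 (-1.08 to -0.57) in library 3 and -0.93 (-1.22 to -0.68) in library 4. Timd4 was thus more frequent among dividing cells in library 2 and less frequent in libraries 3 and 4, and in cells of 5000 to 20000 UMIs the ratios were 1.26, -0.96 and -1.09. Without thinning, a UMI was found in 32.1, 53.7 and 50.7% of dividing cells, against 16.5, 64.1 and 67.2% of comparison cells.

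Gata6 was found in 18.1% (12.9 to 24.3%), 29.7% (23.1 to 37.1%) and 29.4% (21.9 to 37.8%) of dividing cells of libraries 2 to 4. The comparison cells had 24.1, 45.3 and 45.8%, and B cell barcodes 0, 0.654 and 2.55%. Its level was 41.5, 78.9 and 75 CPM in dividing cells, against 63.3, 132 and 140 CPM in comparison cells. Gata6 thus had a lower level in dividing cells in each library at 5000 UMIs, with log2 ratios of -0.59 (-1.11 to -0.15), -0.73 (-1.11 to -0.39) and -0.88 (-1.33 to -0.50), none of them past the rule of size. In cells of 5000 to 20000 UMIs they were -0.10, -0.82 and -1.23, and at 3000 UMIs per cell -0.18, -0.60 and -0.91, so the difference in library 2 was smaller in both settings. Without thinning a UMI was found in 48.9, 74.9 and 67.6% of dividing cells, against 43.5, 71.6 and 70.3% of comparison cells, so at full depth most dividing cells of libraries 3 and 4 showed the gene.

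Folr2 (chr7:101839988-101857194, minus strand), a folate receptor of resident tissue macrophages, was found in 36.2% (29.3 to 43.5%), 18.3% (12.9 to 24.8%) and 11.8% (6.88 to 18.4%) of dividing cells. The comparison cells had 24.4, 6.56 and 6.58%, and B cell barcodes 1.33, 0.654 and 1.53%. Its level was 116, 73.1 and 44.1 CPM in dividing cells, against 91.5, 28.3 and 23.6 CPM. Folr2 was thus higher in dividing cells in each library, with log2 ratios of 0.35 (0.05 to 0.62), 1.38 (0.97 to 1.75) and 0.92 (0.32 to 1.43). In cells of 5000 to 20000 UMIs they were 0.34, 1.42 and 0.62. At full depth a Folr2 UMI was found in 63.2, 30.9 and 32.4% of dividing cells, against 36.4, 11.7 and 10.4% of comparison cells.

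Chil3 (chr3:106147554-106167564, minus strand), which encodes the secreted chitinase-like protein Ym1, was found in 75% (68.2 to 81.0%), 45.1% (37.6 to 52.8%) and 44.9% (36.3 to 53.6%) of dividing cells. The comparison cells had 83.2, 35.2 and 14.7%, and the background in B cell barcodes was high in library 2, at 38, 9.80 and 2.04%. Its level was 1179, 763 and 644 CPM in dividing cells, against 2980.2, 553 and 133 CPM in comparison cells. Its log2 ratio differed in sign between libraries, at -1.34 (-1.43 to -1.25), 0.47 (0.35 to 0.58) and 2.28 (2.13 to 2.42). With the mitochondrial limit at 5%, the library 3 value was -0.34, and in cells of 5000 to 20000 UMIs the ratios were -1.17, 0.81 and 2.07. At full depth a Chil3 UMI was found in 94.2, 69.1 and 60.3% of dividing cells, against 92.2, 51.9 and 22.6% of comparison cells.

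Ccr2 (chr9:124101950-124113557, plus strand) was found in 29.8% (23.4 to 36.9%), 14.9% (9.94 to 21.0%) and 32.4% (24.6 to 40.9%) of dividing cells. The comparison cells had 24.9, 3.19 and 5.85%, and B cell barcodes 2.22, 0.654 and 1.53%. Its level was 161, 74.3 and 207 CPM in dividing cells, against 129, 18.5 and 30.2 CPM in comparison cells. The log2 ratio was 0.33 (0.07 to 0.56), 2.02 (1.60 to 2.39) and 2.79 (2.51 to 3.05), so Ccr2 was higher among dividing cells in each library and the most so in library 4. In cells of 5000 to 20000 UMIs it was 0.66, 1.20 and 2.82, and without thinning 0.17, 2.29 and 2.68. At full depth a Ccr2 UMI was found in 47.4, 24 and 47.1% of dividing cells, against 32.3, 4.73 and 8.14% of comparison cells. The rule asked for at least 1 UMI of Adgre1 in dividing cells and at least 2 in comparison cells. With comparison cells also taken from 1 UMI, the Ccr2 ratios were smaller, at 0.14, 1.49 and 2.50. Adgre1 itself, which chose the cells, had 383, 561 and 459 CPM in dividing cells, against 573, 1003 and 908 CPM in comparison cells.

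**Figure D4:**
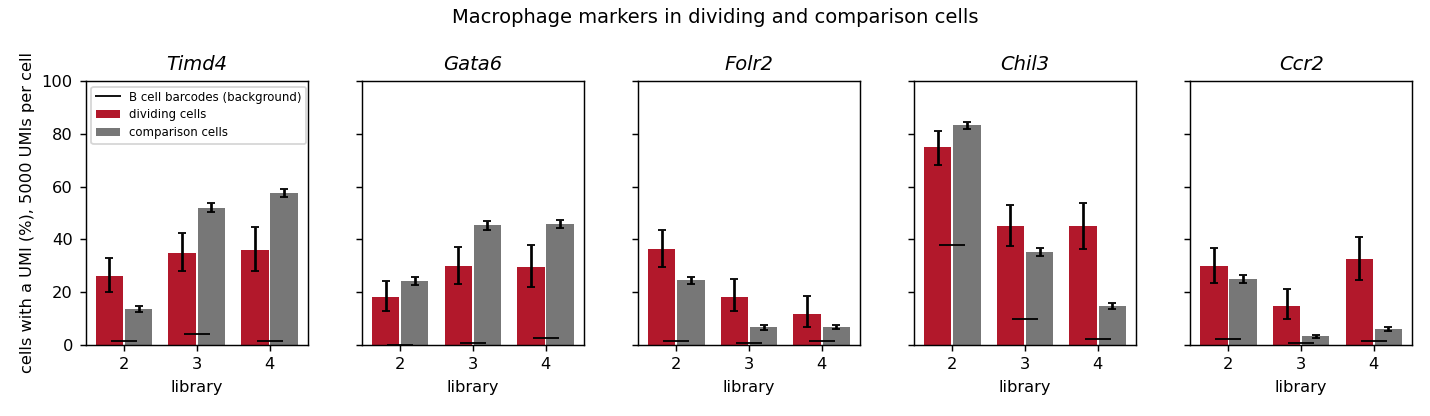
Percentage of cells with at least 1 UMI of each of 5 markers after thinning to 5000 UMIs, in dividing cells (red, left bar) and comparison cells (grey, right bar) of libraries 2 to 4, with exact binomial 95% intervals; short black lines give the percentage in B cell barcodes. Ccr2 and Folr2 are more frequent in dividing cells of each library, Gata6 less frequent at this depth, and Timd4 and Chil3 change direction between libraries. The intervals of the 2 sets overlap for Ccr2 and Gata6 in library 2 and for Folr2 in library 4.

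The dividing cells resembled each other across libraries more than the comparison cells did for these markers. Between libraries 2, 3 and 4, Chil3 varied 1.83-fold in dividing cells and 22.5-fold in comparison cells. Timd4 varied 1.43-fold in dividing cells and 4.37-fold in comparison cells, and Ccr2 2.79-fold and 6.96-fold. Gata6 varied 1.90-fold in dividing cells and 2.21-fold in comparison cells, and Folr2 2.63-fold and 3.87-fold. The difference in these ranges was not tested, and the libraries cannot be given to groups.

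Seen from the markers, the share of dividing cells among Adgre1-positive cells with a Ccr2 UMI was 5.34% in library 2 (4.03 to 6.93%), 14.9% in library 3 (9.87 to 21.2%) and 12.8% in library 4 (9.42 to 16.8%). Among cells without a Ccr2 UMI it was 4.37% (3.66 to 5.16%), 3.59% (3.04 to 4.21%) and 2.03% (1.64 to 2.48%). The intervals are apart in libraries 3 and 4 and overlap in library 2. Ccr2-positive cells were few in those libraries, so most dividing cells still had no Ccr2 UMI, with 25 of 171 dividing cells in library 3 and 43 of 135 in library 4 carrying it. Among cells with a Timd4 UMI the share was 8.26, 2.82 and 1.78%, against 3.97, 5.31 and 4.07% among cells without it. Among cells with a Folr2 UMI it was 6.69, 9.81 and 4.92%, against 3.90, 3.57 and 2.62%.

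Marker combinations showed a mixed population. Timd4 or Gata6 without Ccr2 or Folr2 was found in 20.2, 40 and 37.5% of dividing cells, against 19.9, 67.3 and 69.0% of comparison cells. Ccr2 or Folr2 without Timd4 or Gata6 was found in 42.0, 18.9 and 22.8% of dividing cells, against 31.1, 4.92 and 5.34% of comparison cells. UMIs of both kinds occurred in 17.6, 12.6 and 18.4% of dividing cells, against 12.4, 4.35 and 6.24%, and neither kind in 20.2, 28.6 and 21.3%, against 36.7, 23.5 and 19.5%. At this depth, Timd4 or Gata6 without Ccr2 or Folr2 was thus the largest of these 4 classes of dividing cells in libraries 3 and 4. In library 2 it was Ccr2 or Folr2 without Timd4 or Gata6. A cell without a UMI here may still carry the gene, so the classes are not cell identities. Gata6 was found in 18.1, 29.7 and 29.4% of dividing cells after thinning and in 48.9, 74.9 and 67.6% before it. These classes pool Ccr2 with Folr2, which occurred together in 6.38, 1.71 and 2.94% of dividing cells, against 5.84, 0.480 and 0.857% of comparison cells. Timd4 and Ccr2 occurred together in 5.32, 0.571 and 3.68% of dividing cells, against 1.16, 0.509 and 0.808% of comparison cells. Folr2, which resident macrophages express, was found in 68, 32 and 16 dividing cells of libraries 2 to 4, and Ccr2 in 56, 26 and 44. The pooled class thus does not stand for monocyte origin alone. A barcode that held a cell of each kind would count as both kinds, and so would a single cell that expresses genes of both. The part of either was not tested.

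Ccr2 was also read within cells that carried Timd4 or Gata6. Among cells with a Timd4 or Gata6 UMI, Ccr2 was found in 19.7, 6.52 and 25% of dividing cells, against 17.2, 1.22 and 3.03% of comparison cells. Among cells with neither Timd4 nor Gata6 it was found in 35.9, 24.1 and 41.7% of dividing cells, against 28.6, 8.17 and 14.4% of comparison cells. Chil3 in cells with Timd4 or Gata6 was found in 67.6, 40.2 and 36.8% of dividing cells, against 74.4, 32.0 and 10.5%. The Ccr2 percentage was thus higher in dividing cells of both classes in libraries 3 and 4.

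The markers were also read along the sum of the 4 proliferation genes. In library 4 the percentage of cells with Ccr2 was 5.85% at a sum of 0, 8.37% at 1 to 4, 15% at 5 to 9, 16.0% at 10 to 19 and 40% (29.8 to 50.9%) at 20 and over. In library 3 it was 3.19, 5.69, 8.0, 13.6 and 16.1% over the same steps, and in library 2 it was 24.9, 21.6, 16.7, 21.2 and 34.5%. Timd4 in library 4 was found in 57.4, 55.5, 65, 32.0 and 31.1% of cells, and in library 2 in 13.6, 18.4, 27.8, 30.3 and 25%. The steps from 5 to 19 held 20 to 36 cells each and have wide intervals. The cells at 20 and over had the highest percentage of Ccr2 in each library, while Timd4 at sums of 1 to 4 was close to its value at 0 in libraries 3 and 4.

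**Figure D5:**
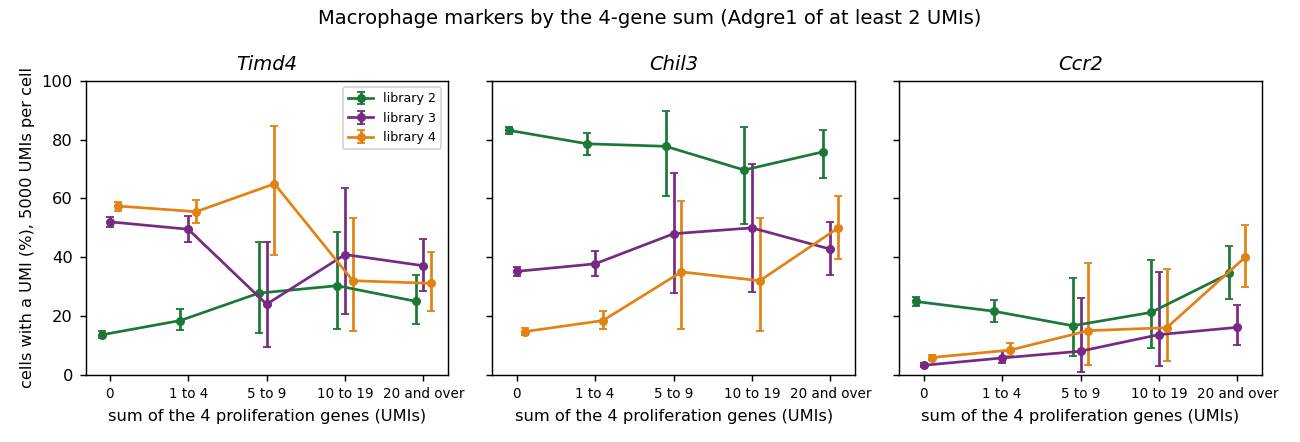
Percentage of Adgre1-positive cells (at least 2 UMIs) with a UMI of Timd4, Chil3 or Ccr2 after thinning to 5000 UMIs, by the sum of the 4 proliferation genes on full counts, in libraries 2 to 4, with exact binomial 95% intervals. For Ccr2 in library 4 the percentage is 5.85% at a sum of 0 and 40% at 20 and over.

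Beyond Timd4 and Gata6, genes of large peritoneal macrophages were lower in dividing cells. Of 14 list genes at 20 CPM, 12 had negative ratios in libraries 2, 3 and 4, and 2 passed the rule of size, with list medians of -0.51, -0.74 and -0.94. A negative ratio in each of these libraries was found in 20.1% of all genes. It was also found in 8 of the 10 general macrophage markers, which include Adgre1 and had medians of -0.44, -0.47 and -0.58. Cxcl13 (chr5:95956951-95961068, plus strand), a chemokine that draws B cells into the cavity, passed with 76.6, 710 and 516 CPM in dividing cells, against 278, 3459 and 2078 CPM in comparison cells. Tgfb2, a growth factor gene, passed with 36.2, 129 and 63.2 CPM, against 90.4, 359 and 358 CPM. Prg4, which encodes lubricin, had 1829.8, 2659 and 2288 CPM, against 2665, 4003 and 3913 CPM, and Alox15, a lipoxygenase of resident cells, had 1532, 1779 and 1721 CPM, against 2379, 2669 and 2606 CPM. Vsig4, a complement receptor, had 35.1, 154 and 110 CPM, against 48.3, 381 and 319 CPM. Fn1, fibronectin, had 9593, 8467 and 8404 CPM, against 12239, 9414 and 9265 CPM. The list therefore remained well expressed in dividing cells, at levels below those of the comparison cells for all but Timd4 in library 2 and Naip1 in library 3.

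Genes of small peritoneal or monocyte-derived macrophages did not pass. The 6 at 20 CPM had list medians of 0.13, 0.80 and 1.08. Mrc1, the mannose receptor, had 76.6, 36.6 and 82.4 CPM in dividing cells, against 68.1, 19.3 and 21.1 CPM in comparison cells. Napsa, an aspartic protease gene, had 62.8, 34.3 and 66.2 CPM, against 72.9, 17.7 and 24.5 CPM. Retnla, an alternative activation gene, had 947, 1521 and 1128 CPM, against 903, 961 and 717 CPM. Ly6c2, the defining gene of the classical monocyte list, was at 3.19, 1.14 and 1.47 CPM in dividing cells, against 7.27, 0.678 and 0.685 CPM. Mrc1, Napsa and Retnla thus had higher levels in dividing cells of libraries 3 and 4 and near equal levels in library 2, and Ly6c2 was low in both sets. Beside Folr2, the list of scavenger receptor genes of resident macrophages had 5 genes at 20 CPM, none past the rule, with medians of 0.35, 0.06 and -0.02.

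MHC class II genes differed in direction by library. All 6 at 20 CPM had negative ratios in library 2 and positive ones in library 4, a sign pattern found in 17.4% of all genes. Cd74, the invariant chain, had 3264, 1745 and 4584 CPM in dividing cells, against 7425, 1455 and 2862 CPM in comparison cells. H2-Aa, a class II alpha chain, had 1583, 705 and 1909 CPM, against 3258, 516 and 1073 CPM. The range in dividing cells lay within that in comparison cells for both genes. Of the dendritic cell markers, Cd209a had 0, 8.0 and 8.82 CPM in dividing cells, against 0.894, 5.99 and 7.73 CPM.

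None of the 11 growth factor and type 2 receptor genes at 20 CPM passed, and 7 had negative ratios in each library, against 20.1% of all genes. Csf1r was among these 7, at -0.58 (-0.73 to -0.44), -0.24 (-0.41 to -0.08) and -0.23 (-0.42 to -0.06). Il4ra, the interleukin 4 receptor chain, had 18.1, 16.0 and 22.1 CPM in dividing cells, against 43.3, 39.4 and 23.3 CPM in comparison cells. Of 12 lineage transcription factors none passed and 7 were negative in each library, again against 20.1% of all genes. Klf2, a quiescence-linked factor, had 887, 982 and 824 CPM in dividing cells, against 1644, 1627 and 1595 CPM. Maf, a factor known to restrain macrophage division in the mouse, had 165, 139 and 101 CPM, against 142, 115 and 114 CPM, and Spi1, the master factor PU.1, had 263, 240 and 285 CPM, against 293, 304 and 285 CPM. Klf2 was thus lower in dividing cells of each library while Maf and Spi1 were near equal.

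Complement genes were lower by less than the rule of size. Of 12 complement and Fc receptor genes, 9 were negative in each library, against 20.1% of all genes and 8 of the 10 macrophage markers. C4b had the lowest ratios, with 585, 1289 and 957 CPM in dividing cells and 1406, 2492 and 2309 CPM in comparison cells. C1qa had 3096, 3693 and 3344 CPM, against 4347, 5243 and 4701 CPM. Iigp1, an interferon-induced GTPase, passed the rule downward with 37.2, 13.7 and 14.7 CPM in dividing cells, against 117, 41.3 and 39.4 CPM, and was the only one of 5 interferon genes at 20 CPM to pass. Junb, an immediate early factor, had 138, 153 and 153 CPM, against 272, 277 and 272 CPM, with ratios of -0.97, -0.85 and -0.82.

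The 9 lower genes were Kdm5b, Slfn5, Cxcl13, Tcp11l2, Pbxip1, Il18bp, Iigp1, Tgfb2 and a gene model without a symbol of its own. In a second random draw 5 of the 9 were called again, and Tgfb2, Iigp1, Il18bp and the gene model were not. With a library left out the count was 14 to 25, with 25 without library 2, 14 without library 3 and 17 without library 4. Kdm5b, Slfn5, Cxcl13, Tcp11l2 and Pbxip1 were called in all 16 settings that recompute the ratios. Kdm5b, a histone H3 lysine demethylase, had 2, 5 and 1 UMIs in dividing cells of libraries 2 to 4, against 442, 483 and 504 UMIs in comparison cells. Its log2 ratios were -3.31 (-6.68 to -1.77), -2.12 (-3.89 to -1.02) and -3.48 (-9.37 to -1.58). The median of these rests on few UMIs and was -1.81 in a second random draw and -2.04 without thinning. The gene was found in 1.06, 2.86 and 0.735% of dividing cells, against 11.9, 13 and 11.3% of comparison cells. Slfn5, a Schlafen family gene induced by interferon, had 17.0, 19.4 and 11.8 CPM in dividing cells, against 141, 93.1 and 51.2 CPM, and was found in 6.38, 7.43 and 5.15% of dividing cells, against 43.5, 32.5 and 20.4%. Il18bp, the decoy that binds interleukin 18, had 4.26, 9.14 and 5.88 CPM, against 30.9, 25.6 and 20.1 CPM. Kdm5b and Slfn5 were thus low in dividing cells and present in a sizeable share of comparison cells at equal depth.

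The 5 dividing cells of library 1 are given by cell. Their depths were 30878, 1269, 29246, 9641 and 14844 UMIs and their 4-gene sums 79, 5, 63, 5 and 50 UMIs. Chil3 had 134, 0, 84, 0 and 17 UMIs, Folr2 8, 0, 2, 5 and 13, Timd4 0, 0, 0, 0 and 6, Gata6 1, 0, 1, 0 and 0, and Ccr2 0, 1, 1, 0 and 0. Folr2 was thus detected in 4 of the 5, the fifth cell carried Timd4 with Folr2, and the second cell was too shallow to judge. In comparison cells of library 1, Folr2 was found in 63.7% and Timd4 in 14.8% at 5000 UMIs.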

How the data were processed

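Per the file headers, Cell Ranger 5.0.1 made the deposited UMI counts per gene and barcode. CASAVA 1.8, Cell Ranger, Seurat and mm10 are named in the submitters' processing notes. The authors' cell filters and cell annotation were not used here. Barcodes with under 500 genes or over 10% mitochondrial UMIs were dropped, and no doublet caller was run. Each cell was thinned to 5000 UMIs with a fixed seed, leaving out shallower cells, and counts were summed per set and library. Log2 ratios used a prior of 0.5 UMIs. Exact binomial, Poisson and conditional binomial 95% intervals cover counting error only. A gene was called past 20 CPM and 1 log2 unit in each library with at least 50 dividing cells. With 1 sample per group and no link from suffixes to samples, no p-value was computed. Named genes were the 12 highest and up to 12 lowest past that rule, without gene models, plus list members. The members and lists were chosen with earlier results of these data known. The code was tested on simulated data and used numpy 2.4.6, scipy 1.17.1, pandas 2.3.3 and matplotlib 3.10.9. Gene positions came from GENCODE M21, which held 31107 of 31253 feature IDs, and promoters from RefSeq (GRCm38.p6). Alternatives varied the thinning, filters, sets, thresholds and libraries.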

Additional observations from a re-analysis of the deposited data

Results flagged for a closer look

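Some list genes had log2 ratios of dividing to comparison cells of opposite sign in different libraries. These differences between libraries were not tested. Chil3, the Ym1 gene, ranged to 2.28 in library 4 and -1.34 in library 2. Timd4, the phosphatidylserine receptor gene, ranged to 0.67 in library 2 and -0.93 in library 4. All 6 MHC class II genes measured at 20 CPM had their highest ratio in library 4 and their lowest in library 2. The ratios were 0.68 and -1.19 for Cd74, 0.83 and -1.04 for H2-Aa, 0.84 and -1.04 for H2-Ab1, and 0.96 and -1.11 for H2-Eb1. For the peptide-loading genes they were 0.29 and -0.87 for H2-DMa and 0.74 and -0.33 for H2-DMb1. Ccnd1, a D-type cyclin gene, had 0.32 in library 2 and -1.07 in library 3. Pf4, a platelet-type chemokine gene of resident macrophages, had 0.44 in library 2 and -0.57 in library 4, and Fcna, a ficolin gene, 0.35 and -0.19. Cxcl2, a neutrophil-drawing chemokine gene, had 0.69 in library 4 and -0.48 in library 3.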

How the results depend on the processing

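The number of dividing cells was 395 to 613 over all settings tried. The 381 genes higher in dividing cells became 610 with a minimum of 5 CPM, 190 with 50 CPM and 758 with a log2 ratio of at least 0.5, and stayed between 327 and 449 otherwise. The 9 lower genes became 22, 3 and 101 in those settings, 14 with ratios centred on the median of all genes, and 14 to 25 with a library left out (25 without library 2, 14 without library 3 and 17 without library 4). In a second random draw, 338 of the 381 and 5 of the 9 were called again. The median ratio of Chil3 was 0.47 and reversed to -0.34 with mitochondrial UMIs at most 5% and to -0.44 without library 4, with a range of -0.44 to 1.37 over libraries left out. That of Gata6 was -0.73, and -0.48 at 8000 UMIs, -0.55 in the second draw and -0.57 without thinning, and -0.81 to -0.66 with a library left out. Timd4 was -0.82, with -0.87 to -0.07 (-0.13 without library 3 and -0.07 without library 4); Folr2 was 0.92, with 0.63 to 1.15; and Ccr2 was 2.02, with 1.17 to 2.40, and 1.20 in cells of 5000 to 20000 UMIs. The cause of these shifts was not tested. Of the other values, 275 moved by less than the spread between libraries, 45 moved by more and 0 changed sign. No paired analysis was possible because the groups share replicate number 1 alone and the results come from no test. Depth limits genes near 20 CPM, for which a dividing set holds few UMIs, and library 1, which had 5 dividing cells.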

Other observations

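Genes outside the cell cycle lists were also past the rule of size in dividing cells, and the following were chosen after their values were seen. Vim, the intermediate filament vimentin, had 1399, 1422 and 1738 CPM in dividing cells of libraries 2 to 4, against 440.4, 308 and 332 CPM in comparison cells. Spn, the surface sialoglycoprotein CD43, had 27.7, 29.7 and 33.8 CPM in dividing cells, against 3.52, 1.75 and 1.71 CPM. Csrp1, a cytoskeletal LIM protein gene, had 56.4, 58.3 and 54.4 CPM, against 7.22, 5.88 and 5.68 CPM. Psat1, of serine synthesis, had 36.2, 37.7 and 35.3 CPM, against 6.80, 3.84 and 2.89 CPM. Mthfd2, a mitochondrial folate enzyme gene, had 56.4, 29.7 and 38.2 CPM, against 9.48, 5.14 and 3.52 CPM. Vim was well expressed in both sets. Spn, Csrp1, Psat1 and Mthfd2 were under 20 CPM in comparison cells of each library, so they entered through the dividing cells and had to be higher there.

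Some cells with a 4-gene sum of at least 5 were left out by the rule. Cells with Adgre1 and a lymphocyte gene numbered 9, 21, 18 and 8 in libraries 1 to 4, and those without Adgre1 numbered 6, 3, 2 and 4. In library 1 they outnumbered the 5 dividing cells that were kept.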
